A study of Mus musculus with 4 samples.

Results

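Accessible chromatin regions assigned to 10 genes of the Hippo pathway are described here: the transcription factor genes Tead1, Tead2, Tead3 and Tead4, the coactivator genes Yap1 and Wwtr1, the angiomotin-like genes Amotl1 and Amotl2, and the kinase genes Lats1 and Lats2. A region was taken when the deposited table names one of these genes for it, which gave 30 of the 29121 regions in the table. Of these, 10 were promoter regions, 1 per gene, which overlap the stretch within 1 kb of the nearest start site, and 20 were distal regions of 8 genes. The table holds only regions selected on a peak in all 4 libraries, so that each region was open in both groups is a condition of the choice and not a finding. The genes were also chosen with the Fgf13cko and control counts of this table known. Their differences are therefore a description, and an adjusted p says only where a region stands in the edgeR fit over all 28801 tested regions, in which all 30 were tested.

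Chromatin accessibility was measured by ATAC-seq, in which a transposase inserts sequencing adapters into open DNA, in hippocampal neurospheres from newborn C57BL/6 mice. Neurospheres are floating clusters of neural progenitor cells, and these were grown for 7 days with FGF-2 and EGF at 20 ng/ml each. The 2 Fgf13cko cultures had the genotype hGFAPCre+, Fgf13 flox/y, and the 2 littermate control cultures hGFAPCre+, Fgf13+/y, so that all 4 carried the Cre transgene. This Cre is driven by the human GFAP promoter, which is active in radial glia, and no sorting of recombined cells is described. The cells of 1 mouse filled 2 wells, and whether 2 cultures of 1 genotype are from different animals is not given. The spread between libraries, and with it each p-value, may therefore be partly technical.

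In the Hippo pathway, upstream kinases activate LATS1 and LATS2, which phosphorylate the coactivators YAP (encoded by Yap1) and TAZ (encoded by Wwtr1) and keep them in the cytoplasm. Unphosphorylated YAP and TAZ enter the nucleus and act through the DNA-binding TEAD proteins. Angiomotin family proteins bind YAP and TAZ at junctions and in the cytoplasm. In neural progenitors the pathway is known for restraining proliferation, and AMOTL2 and LATS2 are known YAP targets that feed back on it.

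The nuclear regions held 2.55 and 2.63 M tags in the Fgf13cko libraries and 2.78 and 3.25 M in the control libraries. Mitochondrial tags made up 9.54% and 9.19% of all tags in Fgf13cko, against 23.4% and 27.0% in controls. The Fgf13cko libraries stood further apart than the control libraries, with a chi-square per region of 5.60 in Fgf13cko and 1.69 in controls. Fgf13cko 1 was above Fgf13cko 2 at 68.5% of all promoter regions but at 37.2% of all distal regions. At the promoters of the Hippo genes it was above at 9 of 10, with a median log2 ratio of 0.49, and at their distal regions at 10 of 20, with a median of -0.05. The 4 regions assigned to Fgf13 had adjusted p-values of 0.0848 to 0.960, and with the floxed exon not named they do not check the genotype.

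The sequence GGAATG, the core of the site that TEAD proteins bind, occurs in the start-site windows of 5 of the 8 Hippo genes that have such a window in RefSeq (GRCm38.p6, 250 bases before to 50 after the start). Both strands were searched, as GGAATG and as its reverse complement CATTCC. The 5 genes were Tead3, Yap1, Wwtr1, Amotl2 and Lats2. The windows of Tead2, Amotl1 and Lats1 held no match, and Tead1 and Tead4 had no window. Of the 10542 genes with a window in a tested promoter region, 12.1% held a match. One window of each of the 5 genes is shown because it holds a sequence match to this core inside the accessible promoter region of the gene. Each is printed on the gene's strand, 5′ to 3′, from 250 bases before to 30 after the start, with the matches in capitals.
Tead3, chr17:28350571-28350850, minus strand: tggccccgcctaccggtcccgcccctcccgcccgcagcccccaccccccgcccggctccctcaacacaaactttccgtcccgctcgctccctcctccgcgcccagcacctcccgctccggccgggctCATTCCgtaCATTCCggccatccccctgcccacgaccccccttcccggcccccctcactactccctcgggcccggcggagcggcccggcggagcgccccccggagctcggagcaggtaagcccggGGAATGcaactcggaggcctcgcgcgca
Yap1, chr9:8004567-8004846, minus strand: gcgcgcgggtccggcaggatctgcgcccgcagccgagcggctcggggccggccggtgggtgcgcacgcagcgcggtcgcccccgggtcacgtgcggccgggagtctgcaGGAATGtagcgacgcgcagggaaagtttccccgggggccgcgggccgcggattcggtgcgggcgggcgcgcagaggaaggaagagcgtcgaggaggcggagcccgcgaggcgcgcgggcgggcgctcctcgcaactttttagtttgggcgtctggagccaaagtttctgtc
Wwtr1, chr3:57575881-57576160, minus strand: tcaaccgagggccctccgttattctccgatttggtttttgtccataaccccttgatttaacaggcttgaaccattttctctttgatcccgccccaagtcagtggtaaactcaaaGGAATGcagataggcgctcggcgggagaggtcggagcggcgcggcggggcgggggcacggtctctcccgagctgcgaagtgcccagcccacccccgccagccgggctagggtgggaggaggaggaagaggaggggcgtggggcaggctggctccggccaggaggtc
Amotl2, chr9:102717554-102717833, plus strand: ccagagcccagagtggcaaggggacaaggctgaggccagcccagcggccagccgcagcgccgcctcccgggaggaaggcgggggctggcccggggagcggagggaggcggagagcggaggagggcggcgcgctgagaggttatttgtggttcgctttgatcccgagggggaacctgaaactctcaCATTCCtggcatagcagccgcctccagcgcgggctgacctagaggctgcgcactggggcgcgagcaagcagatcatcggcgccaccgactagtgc
Lats2, chr14:57746094-57746373, minus strand: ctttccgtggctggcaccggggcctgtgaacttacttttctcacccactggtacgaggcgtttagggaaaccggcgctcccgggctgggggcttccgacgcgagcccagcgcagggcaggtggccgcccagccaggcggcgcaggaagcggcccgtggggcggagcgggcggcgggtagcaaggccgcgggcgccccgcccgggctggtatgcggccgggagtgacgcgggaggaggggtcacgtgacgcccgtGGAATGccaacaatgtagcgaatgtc

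Counted from the start site, the matches begin at -123, -114 and 3 in Tead3, at -141 in Yap1, at -136 in Wwtr1, at -65 in Amotl2 and at 5 in Lats2. The Tead3 window held 3 matches, a number reached by 0.0759% of the genes with an open window. GC content ran from 61.7% in the Wwtr1 window to 75.3% in the Tead3 window, where the median of all open windows was 62.3%. A match is a run of letters, and binding was not measured.

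The 10 promoters covered a wide range of levels per kb. Their regions were 952 to 2648 bases wide, so the order below is one of density and not of whole-region counts. Over the 4 libraries, the Wwtr1 promoter was the highest, with a normalised count of 196 ± 37.4 per kb of region (SD, n = 4), above 84.3% of all promoter regions. Amotl2 followed with 124 ± 24.5 per kb, above 63.8%. Tead3 (76.8 ± 22.7), Tead1 (74.4 ± 20.9), Amotl1 (69.0 ± 10.7), Yap1 (66.5 ± 13.1) and Lats1 (64.9 ± 14.5) came next, all under the median of 97.5 per kb over all promoter regions. Lats2 (51.4 ± 7.64), Tead4 (46.4 ± 5.93) and Tead2 (40.7 ± 7.12) were the lowest, the last of them above 6% of promoter regions. The libraries of Wwtr1, at 171 to 252 per kb, did not overlap those of Amotl2, at 100 to 155 per kb. Every other pair of neighbours in this order overlapped. In counts over the whole region, Wwtr1 was still the highest, with means of 308 in Fgf13cko and 263 in controls. Tead1, the widest region, then stood near Amotl2, at 204 against 229 in Fgf13cko and 190 against 200 in controls. A low rank per kb is therefore not a low count for Tead1. The coactivator genes thus stood far apart, since Yap1 ranged from 47.6 to 77.7 per kb.

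**Figure D1:**
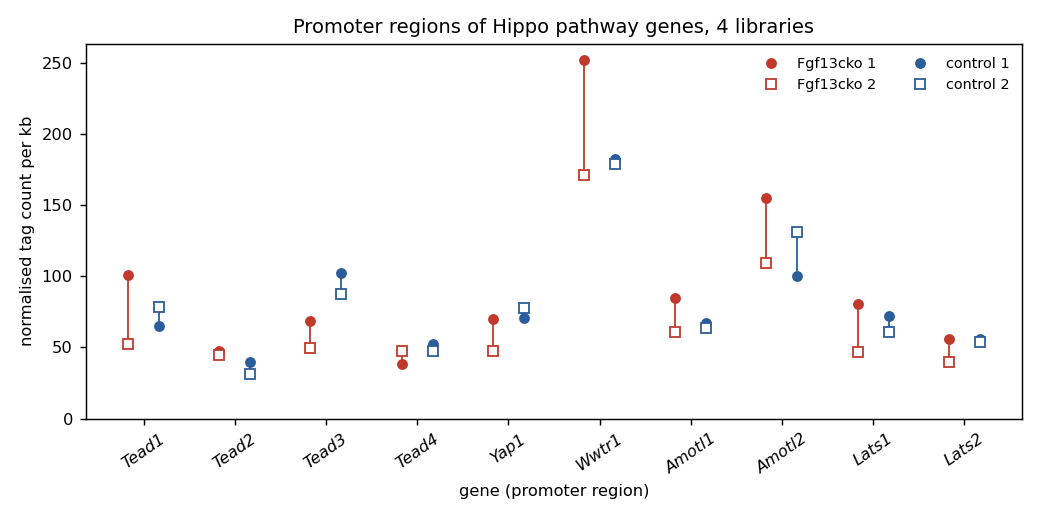
Normalised tag count per kb (vertical axis) of the promoter region of each gene (horizontal axis), with the Fgf13cko libraries left of the control libraries and each point 1 library. Wwtr1 stands above the other genes, and at 9 of 10 genes Fgf13cko 1 lies above Fgf13cko 2.

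Between the groups, 0 of the 10 promoters passed an adjusted p of 0.05 in edgeR, with 1 at an unadjusted p under 0.05 and 0 calls in DESeq2's Wald test. Over all 11712 promoter regions, 1.42% were called higher and 0.76% lower in Fgf13cko. The median log2 fold change, Fgf13cko over control, was 0.02 for the 10 promoters and -0.06 for all promoter regions. Both Fgf13cko values lay above both control values at 1 of the 10 (Tead2) and below them at 3 (Tead3, Tead4 and Yap1), where 19.5% and 29.3% of all promoter regions did so. Where 1 library is left out below, the remaining library of its group has no spread of its own and is assumed to vary like the other group. Without a control library that spread comes from the Fgf13cko pair, which stood further apart, and fewer regions were then called over all regions. A call lost there is therefore no evidence that a region did not differ. Without an Fgf13cko library that spread comes from the closer control pair, and over all regions 7000 (without Fgf13cko 1) and 10086 (without Fgf13cko 2) were then called, against 2258 with all 4 libraries, so such a call shows which library a value rests on and is no evidence of a difference.

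The Tead3 promoter had the smallest p of the 10. Its region, chr17:28350028-28351300 on mm10, held normalised counts of 87.1 and 63.1 in Fgf13cko, against 130 and 111 in controls. Both Fgf13cko libraries were below both control libraries. The log2 fold change was -0.68 (SE 0.23, adjusted p = 0.119). It passed with a loess offset on abundance (-0.82, adjusted p = 0.0359), with a minimum mean count of 50 (-0.75, adjusted p = 0.0452) and without Fgf13cko 1 (-0.94, adjusted p = 0.000959), within a range of 0.000959 to 0.668 over its alternatives. For the 55 regions of other genes within 1 Mb of Tead3 the median was -0.37, and the part of this stretch in the Tead3 value was not tested.

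Among the other TEAD genes, the Tead1 promoter (chr7:112678568-112681215) held 269 and 139 in Fgf13cko, against 172 and 208 in controls. The control values lay between the Fgf13cko values. The log2 fold change was 0.10 (SE 0.29, adjusted p = 0.878), and it turned with the library left out, to -0.47 without Fgf13cko 1 (adjusted p = 0.0451) and 0.49 without Fgf13cko 2 (adjusted p = 0.0109). The promoter of Tead2, a TEAD gene known from early embryos and neural progenitors, held 47.3 and 44.6 in Fgf13cko, against 39.9 and 31.1 in controls (chr7:45215788-45216786). Its groups did not overlap, with a log2 fold change of 0.39 (SE 0.33, adjusted p = 0.533). The promoter of Tead4, known for its role in the trophectoderm, held 36.3 and 45.1 in Fgf13cko, against 49.8 and 45.5 in controls. This region, chr6:128299967-128300918, is annotated to the 5′ UTR in exon 1 of 12, and the groups were separated only by the gap between 45.1 and 45.5. Its log2 fold change was -0.22 (SE 0.30, adjusted p = 0.723), and it was 0.03 with the total of non-mitochondrial tags as the only scaling.

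For the coactivators, the Yap1 promoter (chr9:8003027-8005167) held 150 and 102 in Fgf13cko, against 152 and 166 in controls. The Fgf13cko values were both lower, by a narrow gap for Fgf13cko 1, with a log2 fold change of -0.34 (SE 0.22, adjusted p = 0.417). The Wwtr1 promoter (chr3:57575355-57576812) held 367 and 250 in Fgf13cko, against 266 and 260 in controls. Here the control values lay between the Fgf13cko values, with a log2 fold change of 0.23 (SE 0.22, adjusted p = 0.600). Without Fgf13cko 1 the Yap1 promoter was called lower (-0.67, adjusted p = 0.00690), and without Fgf13cko 2 the Wwtr1 promoter was called higher (0.47, adjusted p = 0.00665).

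At the angiomotin-like and LATS genes the groups overlapped at each promoter. Amotl1 (chr9:14613883-14615273) held 118 and 84.9 in Fgf13cko, against 93.6 and 88.0 in controls, a log2 fold change of 0.15 (SE 0.23, adjusted p = 0.752). Amotl2 (chr9:102717190-102718921) held 269 and 189 in Fgf13cko, against 173 and 226 in controls, a log2 fold change of 0.19 (SE 0.23, adjusted p = 0.686). The Amotl2 promoter was called higher without Fgf13cko 2 (0.41, adjusted p = 0.0344) and stood at -0.12 without Fgf13cko 1. Lats1 (chr10:7680537-7681974) held 115 and 67.4 in Fgf13cko, against 103 and 87.2 in controls, a log2 fold change of -0.06 (SE 0.27, adjusted p = 0.929) that was 0.14 with non-mitochondrial tag totals as scaling. Lats2 (chr14:57745616-57746663) held 58.2 and 41.9 in Fgf13cko, against 58.6 and 56.6 in controls, a log2 fold change of -0.21 (SE 0.28, adjusted p = 0.723). In all 4 genes the first Fgf13cko library was the higher of its pair.

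Away from the promoters, 4 of the 20 distal regions rose in Fgf13cko, 3 at Tead1 and 1 at Amotl1, and 1 fell, at Tead3. Over all 17087 distal regions, 9.48% were called higher and 2.23% lower. DESeq2's Wald test called 4 of the 20. Both Fgf13cko values lay above both control values at 7 of the 20 and below them at 6, where 34.7% and 22.4% of all distal regions did so. The median log2 fold change was 0.21 for the 20 and 0.09 for all distal regions. All 5 called regions are intronic, as are 17 of the 20 (85%) and 47% of all distal regions. In bulk chromatin, more cells of a type in which a region is open and more open chromatin per cell cannot be told apart.

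**Figure D2:**
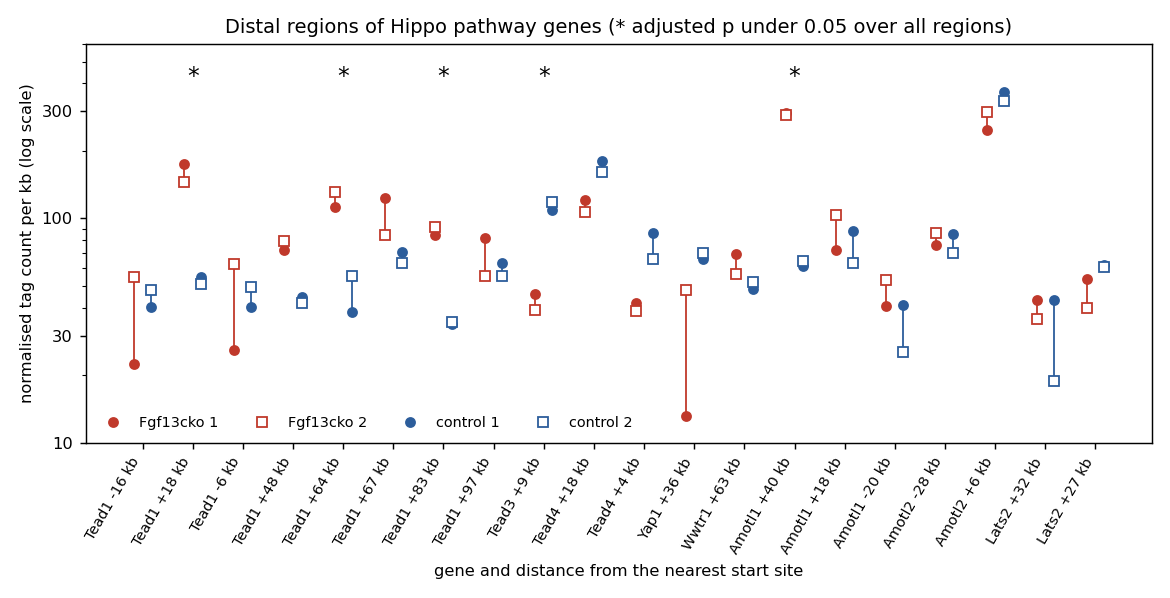
Normalised tag count per kb on a log scale (vertical axis) of the 20 distal regions, named by gene and distance from the nearest start site (horizontal axis), with the Fgf13cko libraries left of the control libraries. Asterisks mark the 5 called regions: 3 of Tead1, 1 of Tead3 and 1 of Amotl1.

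The largest difference among the 30 regions was at Amotl1, whose product binds YAP at tight junctions. The region chr9:14574657-14575508, in intron 4 of 12 and 39.9 kb from the nearest start site, held 251 and 247 in Fgf13cko, against 52.2 and 54.9 in controls. The libraries within each group nearly coincided and the groups were far apart. Means were 249 ± 2.97 in Fgf13cko and 53.6 ± 1.87 in controls (SD, n = 2 each), a log2 fold change of 2.22 (SE 0.19, adjusted p = 0.00384). Only 0.217% of all distal regions had a larger rise. The region passed under every alternative that kept the 4 libraries, with log2 fold changes of 2.10 to 2.45. Adjusted p-values there ran from 1.33e-09 in DESeq2's Wald test to 0.00390 in edgeR without the mitochondrial regions. With each library left out in turn the log2 fold change was 2.18 to 2.25. These are refits of the same libraries and add no independent support. Per kb it reached 292 in Fgf13cko and 62.9 in controls, where the promoter of the gene stood at 72.8 per kb in Fgf13cko and 65.3 in controls.

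The other 2 distal regions of Amotl1, 18.2 kb downstream and 19.5 kb upstream of the nearest start site, had overlapping groups. Their log2 fold changes were 0.23 (adjusted p = 0.722) and 0.48 (adjusted p = 0.696). The upstream one still lies within the full span of the gene, chr9:14541966-14662974. Among regions of other genes within 1 Mb of Amotl1, 4 of 16 distal regions were called higher and 0 lower, with a median log2 fold change of 0.23. Their part in the Amotl1 value was not tested.

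Tead1 had the most regions, with 8 distal ones. The region chr7:112696805-112697933, in intron 1 of 13 and 18.0 kb from the nearest start site, held 197 and 164 in Fgf13cko, against 62.1 and 57.8 in controls. It rose by a log2 fold change of 1.59 (SE 0.21, adjusted p = 0.00480), and 2.03% of all distal regions had a larger rise. The region chr7:112823019-112824011, in intron 2, held 112 and 130 in Fgf13cko, against 37.9 and 54.9 in controls, a log2 fold change of 1.38 (SE 0.25, adjusted p = 0.0146). The region chr7:112841711-112842339, in intron 4, held 53.1 and 57.8 in Fgf13cko, against 21.2 and 21.7 in controls, a log2 fold change of 1.33 (SE 0.34, adjusted p = 0.0479). In each of the 3 both Fgf13cko libraries stood above both control libraries. The first call was lost without control 2 (1.54, adjusted p = 0.0594) but not without control 1 (1.64, adjusted p = 0.0285), and the second was lost without control 1 (1.15, adjusted p = 0.142) or control 2 (1.68, adjusted p = 0.0553). The third was lost without control 1 (1.31) or control 2 (1.34) and with a replicate block (adjusted p = 0.0564). It was also lost with non-mitochondrial tag totals as scaling (1.57, adjusted p = 0.0543), without the mitochondrial regions (1.30, adjusted p = 0.0520) and in DESeq2's Wald test.

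The other 5 distal regions of Tead1 had log2 fold changes from -0.21 to 0.83 and adjusted p-values from 0.109 to 0.999. At 2 of them both Fgf13cko values lay above both control values, and at 3 the groups overlapped. Over all 8 the median log2 fold change was 0.73, against 0.10 at the promoter. Regions of other genes within 1 Mb of Tead1 had a median of 0.13 over 24 distal regions, with 3 called higher and 0 lower.

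**Figure D3:**
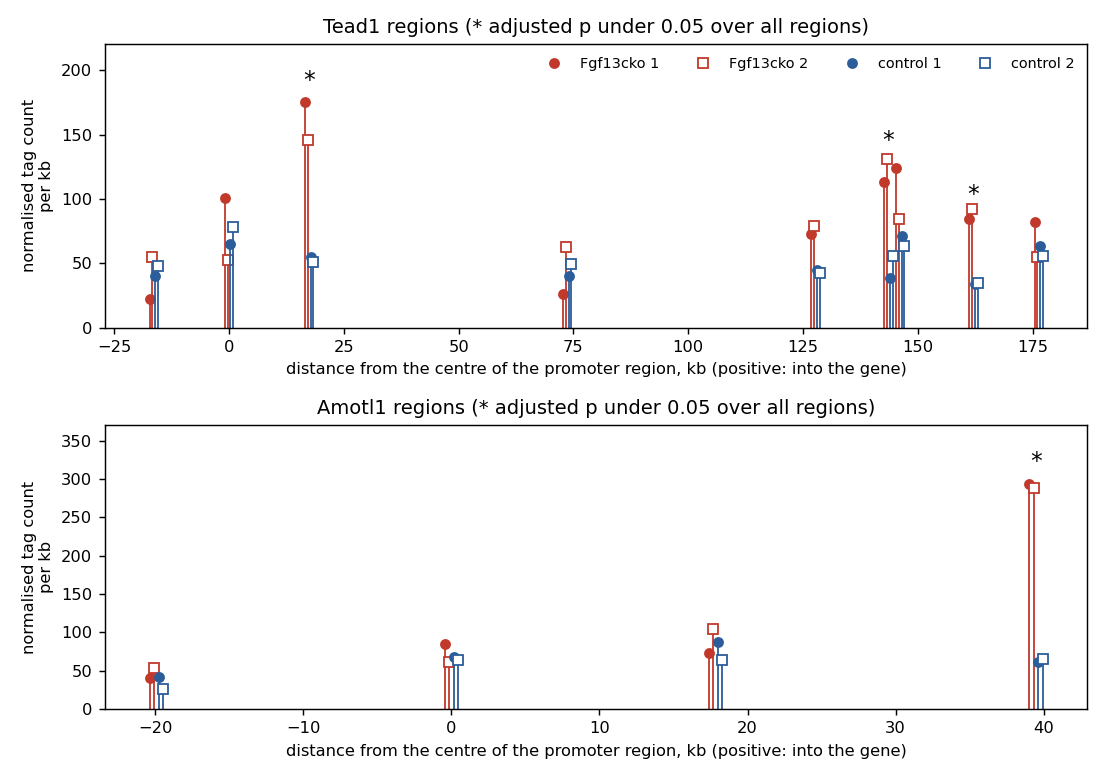
Normalised tag count per kb (vertical axis) of every table region of Tead1 and Amotl1, by distance in kb from the promoter region (horizontal axis), with each point 1 library of Fgf13cko or control. The promoters overlap between the groups, while the 3 called regions of Tead1 and the called region of Amotl1 are higher in both Fgf13cko libraries.

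At Tead3 the single distal region fell. It lies at chr17:28340926-28341601, in intron 2 of 12 and 9.08 kb from the nearest start site, and held 31.1 and 26.5 in Fgf13cko, against 73.9 and 79.5 in controls. Both Fgf13cko libraries were far below the control libraries, with a log2 fold change of -1.42 (SE 0.28, adjusted p = 0.0186), and 2.18% of all distal regions had a larger fall. The call was lost without control 1 (-1.47, adjusted p = 0.167), without control 2 (-1.36, adjusted p = 0.283) and with non-mitochondrial tag totals as scaling (-1.20, adjusted p = 0.0901). Other distal regions within 1 Mb of Tead3 had a median of -0.33, and 1 of 29 was called lower.

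Both distal regions of Tead4, in intron 1 of 10, had lower values in Fgf13cko without passing. The one with the smaller p, chr6:128281938-128282767, held 100 and 88.6 in Fgf13cko, against 150 and 134 in controls. The groups did not overlap, and the log2 fold change was -0.58 (SE 0.20, adjusted p = 0.112). It passed with a loess offset (-0.71, adjusted p = 0.0338), with a minimum mean count of 50 (-0.65, adjusted p = 0.0417) and without Fgf13cko 1 (-0.70, adjusted p = 0.00862). The other had a log2 fold change of -0.91 (SE 0.35, adjusted p = 0.155), also without overlap. Regions of other genes within 1 Mb of Tead4 had a median log2 fold change of 0.32. Tead2 had no distal region in the table.

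The 6 distal regions of Yap1, Wwtr1, Amotl2 and Lats2 had adjusted p-values from 0.307 to 0.888. The Yap1 region (chr9:7968647-7968998, intron 3 of 7) was shallow, with 4.61 and 17 in Fgf13cko, against 23.2 and 24.7 in controls. Its log2 fold change was -1.14 (SE 0.71, adjusted p = 0.394), and it was -2.37 without Fgf13cko 2 (adjusted p = 0.00309). The Wwtr1 region (chr3:57511898-57512955, intron 2 of 6) held 73.2 and 59.9 in Fgf13cko, against 51.2 and 54.9 in controls, a log2 fold change of 0.33 (SE 0.26, adjusted p = 0.502). At both coactivator genes the groups did not overlap, with Yap1 lower and Wwtr1 higher in Fgf13cko. Of all distal regions, 22.4% were likewise lower and 34.7% likewise higher without overlap, so neither order is unusual.

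Amotl2 held the most accessible distal region of the 20, chr9:102723776-102724537 in intron 3 of 9, with 311 per kb over the 4 libraries, above 99% of all distal regions. Its normalised counts were 190 and 226 in Fgf13cko, against 279 and 254 in controls. The groups did not overlap, with a log2 fold change of -0.36 (SE 0.19, adjusted p = 0.307), and without Fgf13cko 2 it was called lower (-0.50, adjusted p = 0.0122). The better-covered region of Lats2, chr14:57707016-57707838 in intron 2 of 7, held 44.4 and 32.9 in Fgf13cko, against 51.2 and 50.2 in controls, a log2 fold change of -0.40 (SE 0.31, adjusted p = 0.493). The remaining regions of Amotl2 and Lats2 overlapped between the groups, at 0.08 and 0.37. Lats1 had its promoter region only.

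**Figure D4:**
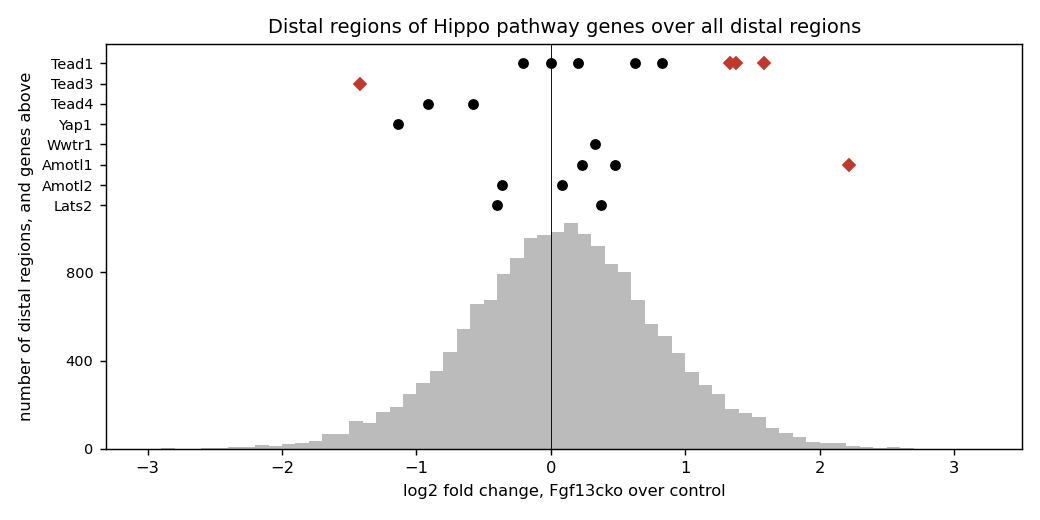
Number of distal regions per log2 fold change, Fgf13cko over control (horizontal axis), with the 20 distal regions of the Hippo genes as points, 1 row per gene. The Amotl1 region at 2.22 lies in the upper tail and the Tead3 region at -1.42 in the lower one, and the regions of Tead1 run from -0.21 to 1.59.

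Peaks were also read from the lists called per library, those absent from the table included, over each gene and 10 kb on each side. They were taken by position and not by the gene that the table names. The lists held 64954 and 54373 peaks in Fgf13cko and 38006 and 47148 in controls. At the 10 genes they merged into 91 regions, of which 34 had a peak in all 4 libraries. A peak in both Fgf13cko libraries and in neither control stood at 8 of the 91 (8.79%), where 12.3% of all merged peaks had this pattern. The reverse stood at 0 of the 91, where 1.77% did. At a −log10 q of at least 2 the first pattern stood at 10 of 72 (13.9%), where 12.9% of all merged peaks had it, so the order of these shares depends on the threshold. Tead1 and Lats2 held 3 each of the 8, and Yap1 and Wwtr1 held 1 each. The Wwtr1 peak, chr3:57542882-57543297, had the authors' fold enrichment of 4.24 in Fgf13cko 1 and 5.68 in Fgf13cko 2, and the Lats2 peak chr14:57716566-57717018 had 5.08 in Fgf13cko 1 and 4.54 in Fgf13cko 2. The Fgf13cko lists were the longer ones although these libraries held fewer tags, 16.8 and 13.1 M, against 24.9 and 26.0 M in controls. The length of a list can move with depth and signal, so a missing peak does not show closed chromatin.

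Genes that act around these 10 were read from 4 pathway lists, beside the shares over all regions, which were 1.42% higher and 0.76% lower for promoter regions and 9.48% higher and 2.23% lower for distal regions. Among kinases and scaffolds, 0 of 28 promoter regions rose and 1 fell, while 5 of 38 distal regions rose and 0 fell, near the share over all distal regions. Wwc1, whose product KIBRA promotes LATS activation, had a pair of regions in intron 1 that rose, the first with 207 and 221 in Fgf13cko, against 74.9 and 59.5 in controls (log2 fold change 1.67, adjusted p = 0.00445) and the second with a log2 fold change of 1.56 (adjusted p = 0.00641). A distal region of the kinase gene Taok1 rose (1.02, adjusted p = 0.0133). A region near a start site of the kinase gene Map4k4 fell, with 77.8 and 70.5 in Fgf13cko, against 154 and 132 in controls (-0.95, adjusted p = 0.0266). Among polarity, junction and cadherin genes, 0 of 17 promoter regions passed in edgeR (2 at an unadjusted p under 0.05, 0 in the Wald test), while 7 of 59 distal regions rose and 0 fell, also near that share. The region of Limd1, which encodes a LATS-binding LIM protein, held 106 and 162 in Fgf13cko, against 28.1 and 33.6 in controls (2.12, adjusted p = 0.00546). Regions of the junction and polarity genes Pard3 (1.57, adjusted p = 0.00864) and Tjp1 (1.47, adjusted p = 0.0113) and of the cadherin gene Fat3 (1.18, adjusted p = 0.0157) rose as well.

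Among TEAD partners and YAP regulators, 0 of 18 promoter regions passed in edgeR (1 at an unadjusted p under 0.05, 0 in the Wald test), and 2 of 36 distal regions rose and 1 fell. Those were regions assigned to Vgll4, which encodes a TEAD corepressor (1.03, adjusted p = 0.0267), to the 14-3-3 gene Ywhaz (0.97, adjusted p = 0.0290) and to the receptor gene Erbb4 (-1.74, adjusted p = 0.0316). The Vgll4 region lies 117 kb from the nearest start site, in intron 19 of 19 of a transcript given without a gene name. Whether it acts on Vgll4 was not tested. Among known YAP, TAZ and TEAD targets, 0 of 19 promoter regions rose and 1 fell. Of their distal regions 2 of 58 rose and 0 fell, where 9.48% and 2.23% of all distal regions did so. The promoter of the receptor kinase gene Axl fell, with 115 and 84.9 in Fgf13cko, against 228 and 244 in controls (-1.24, adjusted p = 0.0107), while distal regions of F3 (1.26, adjusted p = 0.0131) and Rbms3 (1.17, adjusted p = 0.0175) rose. Median log2 fold changes of the distal regions were 0.12 for kinases and scaffolds, 0.34 for polarity genes, 0.11 for partners and -0.02 for targets, where all distal regions had 0.09. Over the 4 lists 19 regions were called, and fewer without control 1 or without control 2, as was so over all regions. Map4k4 (adjusted p = 0.0685) and Ywhaz (adjusted p = 0.116) did not pass in the Wald test, and Erbb4 was not called there either.

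Cell type markers were read beside these results. Of 12 neural progenitor markers all had a region and 10 a promoter region, and of their 34 distal regions 4 rose and 1 fell. Of the neuron markers' promoter regions 3 of 8 rose, where 1.42% of all promoter regions did, and their summed normalised counts were 910 and 887 in Fgf13cko, against 558 and 609 in controls. Of their distal regions 1 of 17 rose and 1 fell, with sums of 1157 and 1333 in Fgf13cko, against 1131 and 1146 in controls, and Dcx and Stmn2 had no region. Oligodendrocyte markers had 3 of 22 distal regions that rose, where 9.48% of all distal regions did, with sums of 2841 and 2598 in Fgf13cko, against 1977 and 1843 in controls. Of their promoter regions 0 of 5 rose and 1 fell, with sums of 755 and 577 in Fgf13cko, against 623 and 703 in controls, and Sox10 had no region. Of 8 microglial markers, 5 had no region, Cx3cr1, Itgam, Spi1, Aif1 and Tmem119. Among distal regions, astrocyte markers had 1 of 13 that rose and 1 that fell, endothelial markers 1 of 20 and 1, and ependymal and choroid plexus markers 1 of 16 and 1. Meningeal fibroblast markers had 4 of 10 genes with a promoter region, and Col3a1, Dcn, Lum and Twist1 had no region. The part of these cell types in the values of the Hippo genes was not tested.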

How the data were processed

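ATAC-seq libraries of 2 Fgf13cko and 2 control neurosphere cultures were grouped by the sample titles. Per the file headers, the authors deposited estimated counts, raw tags that HOMER assigned to merged broad peaks on mm10, all multiples of 0.5 (50.2% whole), and these were rounded before testing. The deposited peak lists, 1 per library, give each peak's fold enrichment (a ratio) and its −log10 p and −log10 q as the authors' values, used only to describe or filter peaks. Of tools, HOMER, MACS2, Bowtie2, Picard and DESeq2 appear in the submitters' processing notes without version or role. Read shifting and duplicate handling are not stated there.

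Regions were tested with edgeR 4.0.16 (R 4.3.3; TMM, filterByExpr, robust quasi-likelihood test, two-sided) with Benjamini-Hochberg adjustment over 28801 regions and a threshold of 0.05. DESeq2 1.42.0 and limma 3.58.1 (loess) served alternatives, and the test was also run on simulated data. Normalised counts are tags divided by the TMM library size relative to the mean of the 4. Depth was 16.8 and 13.1 M tags in the Fgf13cko libraries and 24.9 and 26.0 M in the control libraries. The table includes 2 mitochondrial regions, kept out of promoter and distal backgrounds. Deviations of same-numbered libraries correlated at -0.24, and no label pairs the cultures, so the replicate block was an alternative.

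The genes and all lists were chosen with earlier results of these data known. Every promoter region is given by library. A distal region is given by library if it passed or had the smallest p of its gene, and the rest by counts and ranges. Up to 4 called regions of each pathway list are named, smallest p first. Promoter sequences come from RefSeq (GRCm38.p6), and distal sequences were not used here.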

Additional observations from a re-analysis of the deposited data

How the results depend on the processing

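With 2 libraries a group, the library left out moved the counts most. Over all regions 2258 were called, and without 1 library 224 to 10086, where the lone library of a group is assumed to vary like the other group. Of the Hippo promoters 0 were called and 0 to 3 with 1 library left out, of the distal regions 5 and 1 to 10, and of the list regions 19 and 1 to 94. A loess offset gave 3415 calls over all regions (2233 higher and 1182 lower, against 1786 and 472) and 1 promoter, a minimum mean count of 50 gave 1 promoter, and the deposited tag totals less mitochondrial tags as the only scaling, which moved the median of all regions to 0.24, gave 3 distal regions and 2624 higher and 159 lower over all. That scaling put the Tead4 promoter at 0.03 and the Lats1 promoter at 0.14. With 1 library left out, log2 fold changes ran from -0.47 to 0.49 at the Tead1 promoter, from -0.10 to 0.47 at that of Wwtr1, from -0.13 to 0.36 at that of Amotl1, from -0.12 to 0.41 at that of Amotl2 and from -0.51 to 0.28 at that of Lats1. The cause of these shifts was not tested. The replicate block gave 2808 calls over all regions, 0 promoters and 4 distal regions, and among the 34 named regions the call it changed was that of the Tead1 region in intron 4. Crossing the replicate numbers, chosen after seeing the data, gave 3817 calls over all regions and 32 in the lists. Merged peaks found in both Fgf13cko libraries and no control numbered 8 of 91 (8.79%, against 12.3% of all merged peaks) and, at a −log10 q of at least 2, 10 of 72 (13.9%, against 12.9%), not all of them the same peaks. Regions with few tags, such as that of Yap1, limit what could be called.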
